A study of Mus musculus with 14 samples.

Results

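The IgLON genes of the mouse are Lsamp, Ntm, Opcml, Negr1 and Iglon5, 5 of the 21883 protein-coding genes with coordinates in the annotation used here. They were chosen by their numbers of BMI1 and H2AK119ub peaks in these data. A peak counted for a gene when it touched the span of the gene on GRCm38 or the 5 kb on either side. These windows, 5.12 Mb in sum and 0.189% of the span of the assembled chromosomes, held 137 of the 39832 peaks of the study. The study mapped BMI1 and H2AK119ub by ChIP-seq, in which chromatin bound by an antibody is sequenced, in cardiac cells of C57BL/6 mice aged 6 to 8 weeks that were enriched for Sca1 and depleted of CD45. The 4 groups of 3 libraries were Damage BMI1 and Damage H2AK119ub, from mice injected once into the peritoneum with paraquat at 20 mg/kg, and Homeostasis BMI1 and Homeostasis H2AK119ub, from mice given PBS. All mice were of the same strain, and the labels give no genetic change, no interval between injection and collection, and no link between replicates and single mice, so the spread between libraries may be technical. They describe a culture step without saying whether the ChIP cells went through it. The 2 Input libraries were not analysed here. Sca1 is a surface protein of stromal and endothelial cells of the heart, and CD45 marks blood cells. Peak lists hold no RNA level, so the cell label was not checked against markers.

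IgLON proteins are small cell-surface adhesion molecules of the immunoglobulin superfamily that are held in the membrane by a GPI anchor. They bind one another within and between cells and are best known from the brain, where they act in neurite growth and synapse formation. BMI1 belongs to a Polycomb complex, PRC1, whose RING1 enzymes place the ubiquitin of H2AK119ub on histone H2A. PRC1 is best known from CpG-rich starts of repressed developmental genes.

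For the 5 genes, RefSeq (GRCm38.p6) lists 7 transcription starts, and no homeostasis peak of either antibody lay within 5 kb of the 250 bases before any of them. At 7 starts in 5.12 Mb of gene windows, evenly spread peaks would seldom lie so near a start. Their absence there therefore says little. One window per gene is shown, because CpG-rich starts are where PRC1 is best known and the peaks of these genes lay elsewhere. CG dinucleotides are in capitals, and both strands hold the same ones. The windows are chr16:39984114-39984363 (plus strand) for Lsamp, chr9:29412686-29412935 (minus strand) for Ntm, chr9:27791049-27791298 (plus strand) for Opcml, chr3:156561544-156561793 (plus strand) for Negr1 and chr7:43490212-43490461 (minus strand) for Iglon5.
Lsamp: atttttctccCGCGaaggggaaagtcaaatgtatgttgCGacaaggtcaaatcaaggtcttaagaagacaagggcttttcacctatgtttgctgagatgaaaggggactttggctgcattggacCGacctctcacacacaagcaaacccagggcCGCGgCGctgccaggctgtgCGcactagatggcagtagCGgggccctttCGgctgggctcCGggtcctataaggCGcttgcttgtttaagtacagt
Ntm: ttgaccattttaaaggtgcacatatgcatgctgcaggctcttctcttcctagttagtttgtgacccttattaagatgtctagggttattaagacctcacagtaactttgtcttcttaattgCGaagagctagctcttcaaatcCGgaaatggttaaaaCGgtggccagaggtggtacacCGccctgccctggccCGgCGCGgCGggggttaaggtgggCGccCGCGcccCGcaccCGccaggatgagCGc
Opcml: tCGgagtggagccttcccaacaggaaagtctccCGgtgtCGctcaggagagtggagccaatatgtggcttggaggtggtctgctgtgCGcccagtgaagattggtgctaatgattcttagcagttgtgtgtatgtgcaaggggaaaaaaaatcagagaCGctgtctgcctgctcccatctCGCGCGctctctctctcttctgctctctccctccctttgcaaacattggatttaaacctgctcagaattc
Negr1: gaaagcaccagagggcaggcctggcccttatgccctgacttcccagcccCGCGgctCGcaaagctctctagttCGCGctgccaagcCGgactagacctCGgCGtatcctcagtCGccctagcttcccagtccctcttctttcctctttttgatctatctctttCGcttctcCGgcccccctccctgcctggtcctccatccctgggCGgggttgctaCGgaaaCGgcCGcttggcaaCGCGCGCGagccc
Iglon5: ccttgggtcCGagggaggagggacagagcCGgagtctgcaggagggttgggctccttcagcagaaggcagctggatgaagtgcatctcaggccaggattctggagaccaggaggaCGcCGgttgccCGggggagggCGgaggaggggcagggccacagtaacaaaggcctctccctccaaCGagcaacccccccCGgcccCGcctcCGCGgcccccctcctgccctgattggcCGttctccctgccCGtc

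These windows held 12 CG in Lsamp, 14 in Ntm, 8 in Opcml, 19 in Negr1 and 13 in Iglon5, against a median of 6 over 32851 listed windows. As many CG as in the Negr1 window were found in 19.7% of all windows, and as many as in the Opcml window in 43.0%. The distance to the nearest homeostasis peak was 59.0 kb from the Lsamp window, 71.6 kb from Opcml, 84.5 kb from Negr1 and 14.1 kb from Iglon5. From the Ntm window it was 7.04 kb, to a peak found in Homeostasis H2AK119ub replicate 2 alone. The remaining windows, a later start of Lsamp and a start of Ntm slightly upstream of the printed one, held 3 and 2 CG. Both were below the median, so the printed windows of Lsamp and Ntm are the richer in CG of their gene. The remaining windows lay 72.9 kb and 6.27 kb from the nearest peak. Starts of transcripts that the table does not list were not examined. The listed starts of Ntm, at 29413452 and 29412685, lie inside the gene, so no window covered its 5′ end at 29963269.

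The members differ widely in length. Lsamp (limbic system-associated membrane protein, gene ID 268890) spans 2197 kb of chromosome 16 (39984254 to 42181679) and ranks as number 4 of all protein-coding genes by length. Ntm (neurotrimin, gene ID 235106) spans 969 kb of chromosome 9 (28994749 to 29963269) on the minus strand. Opcml (opioid-binding protein/cell adhesion molecule-like, gene ID 330908) spans 1135 kb of the same chromosome on the plus strand (27790716 to 28925410). Opcml and Ntm are neighbours whose 3′ ends face each other across 69.3 kb. Negr1 (neuronal growth regulator, gene ID 320840) spans 755 kb of chromosome 3 (156561790 to 157316464). Iglon5 (gene ID 210094), the family member best known as the target of autoantibodies in a human neurological disease, is short, with 17.3 kb on chromosome 7 (43472901 to 43490211).

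After paraquat no IgLON gene had a peak in any of the 6 Damage lists, whereas the 6 Homeostasis lists held 137. The Damage BMI1 lists held 19, 27 and 47 peaks in all and the Damage H2AK119ub lists 31, 68 and 25, against 4072 to 7513 and 2000 to 13487 in the Homeostasis lists. With so few peaks, 0.242 IgLON peaks were expected over the 6 Damage lists, and 0 of 217 peaks allows a share of up to 1.38%, above the 0.346% of peaks seen at homeostasis. A loss of IgLON peaks beyond the general lack of Damage peaks was therefore not detectable. Of all protein-coding genes 0.283% had a peak in a Damage list, 0.142% with BMI1 and 0.151% with H2AK119ub. Of the 234 with windows of 500 kb or more 5.98% did, 3.42% with BMI1 and 2.56% with H2AK119ub.

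At homeostasis the peaks lay in the 4 long members. Lsamp had 8, 10 and 5 BMI1 peaks in replicates 1 to 3, and 0, 15 and 10 H2AK119ub peaks. Its 0 was that of H2AK119ub replicate 1, the list with the fewest Homeostasis peaks, and the groups overlapped. Against the number expected for its length, 3.65 to 6.35 BMI1 peaks and 1.33 to 10.8 H2AK119ub peaks per list, the ratio was 1.61 ± 0.256 for BMI1 (SD, n = 3) and 1.01 ± 0.882 for H2AK119ub (SD, n = 3). These are means of the ratios of single lists. The H2AK119ub mean was 1.51 without H2AK119ub replicate 1, and 0.820 and 0.691 without replicates 2 and 3. With observed and expected numbers summed over the 3 lists, the H2AK119ub ratio was 1.37. The expected number is that of the list's peaks on the chromosome spread evenly over it.

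Ntm had 3, 6 and 4 BMI1 peaks and 2, 9 and 6 H2AK119ub peaks. All 6 lists held one, and the ranges overlapped. The ratio to the expected number was 2.07 ± 0.517 for BMI1 and 2.14 ± 0.601 for H2AK119ub (SD, n = 3 each). Opcml, silenced in several human tumours and described there as a tumour suppressor, had 4, 6 and 3 BMI1 peaks and 1, 12 and 6 H2AK119ub peaks. Here too the H2AK119ub counts spanned those of BMI1, and the ratios were 1.74 ± 0.110 and 1.59 ± 0.361. Negr1, a gene near human variants associated with body mass, had 3, 5 and 4 BMI1 peaks and 2, 7 and 6 H2AK119ub peaks. Its ratios were the highest of the family, 2.54 ± 0.703 for BMI1 and 2.46 ± 0.657 for H2AK119ub. Iglon5 had no peak in any list, with 0.375 expected over the 6 Homeostasis lists, so a count of 0 says little at this length.

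**Figure D1:**
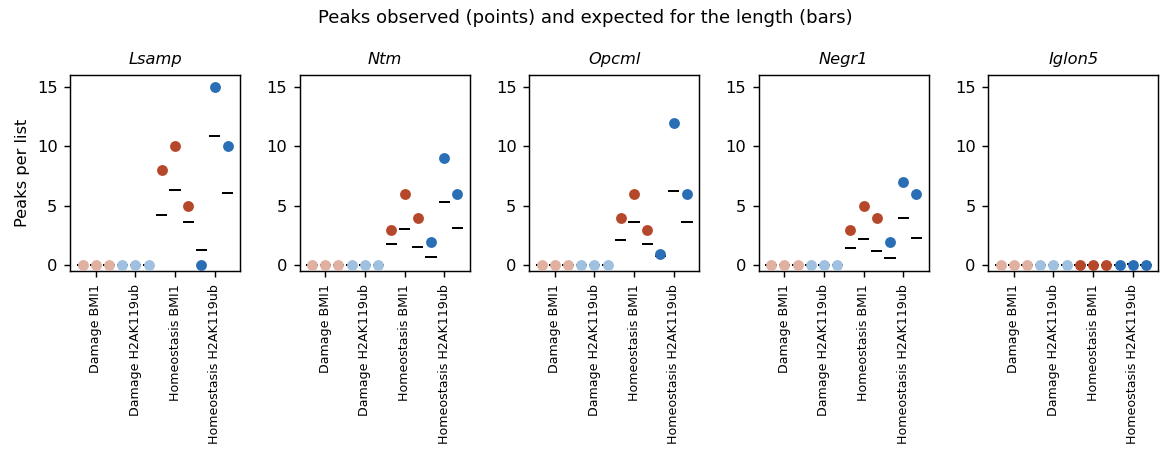
Peaks per list (vertical axis) for each IgLON gene in the 3 libraries of each group (horizontal axis), with replicates 1 to 3 from left to right; points are observed numbers and black bars the number expected for the gene's length. All Damage points are at 0, and in the Homeostasis lists every point of Ntm, Opcml and Negr1 is above its bar, while Lsamp is at 0 in H2AK119ub replicate 1.

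Over the family the BMI1 lists held 18, 27 and 16 peaks and the H2AK119ub lists 5, 43 and 28. As a share of the list this was 0.359%, 0.359% and 0.393% for BMI1 and 0.250%, 0.319% and 0.372% for H2AK119ub. The exact 95% binomial interval, which covers counting error only, was widest in H2AK119ub replicate 1, from 0.0812% to 0.582%, and included every other Homeostasis share. Family ratios were 1.85 ± 0.103 for BMI1 and 1.62 ± 0.208 for H2AK119ub (SD, n = 3 each), with ranges of 1.75 to 1.96 and 1.41 to 1.83 that overlap. No test was run on these numbers, because the genes were chosen with them in view.

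The 4 long members each had peaks in at least 2 of the 3 libraries of BMI1 and of H2AK119ub. Over all protein-coding genes 7.34% met this rule for BMI1 and 9.62% for H2AK119ub, but among the 234 with windows of 500 kb or more the shares were 77.8% and 86.8%, so such recurrence is common at this length. All 3 BMI1 libraries had peaks in each of the 4, as in 4.45% of all genes and 60.3% of the long ones. All 3 H2AK119ub libraries had peaks in Ntm, Opcml and Negr1, as in 2.92% of all genes and 43.2% of the long ones. Peaks in all 6 Homeostasis lists, as in Ntm, Opcml and Negr1, were found in 39.7% of the long genes and in 2.55% of all genes. More peaks than expected were listed in the 4 members for either antibody when the 3 lists were summed, which holds for 48.7% of long genes with BMI1 and 52.1% with H2AK119ub, and for 10.9% and 15.1% of all genes. With observed and expected numbers summed over the 6 lists, the median ratio of the long genes was 0.995, with quartiles at 0.599 and 1.53. Negr1 had a ratio of 2.27 and ranked 14 of 234 from the top, Ntm had 1.92 (rank 33), Opcml 1.75 (rank 40) and Lsamp 1.48 (rank 63). In this order no member differed from the next beyond the spread of the single lists, whose ranges overlapped for each neighbouring pair and either antibody. Of the 4, Lsamp had the most peaks and the lowest ratio.

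**Figure D2:**
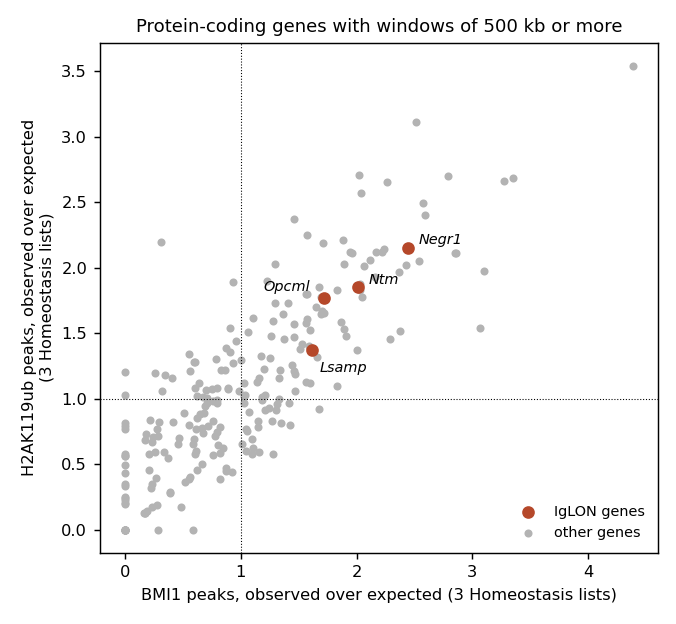
Observed over expected peaks for BMI1 (horizontal axis) and H2AK119ub (vertical axis), each summed over the 3 Homeostasis lists, for the 234 protein-coding genes with windows of 500 kb or more; red points are IgLON genes, grey points the others, and dotted lines mark a ratio of 1. The 4 IgLON genes lie above 1 on both axes, from Lsamp at 1.61 and 1.37 to Negr1 at 2.45 and 2.15, among many other long genes.

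Merging overlapping peaks of all lists gave 56 regions in the family, 22 in Lsamp, 11 in Ntm, 14 in Opcml and 9 in Negr1. Of these, 25 were seen in 1 list, 10 in 2, 6 in 3, 6 in 4, 4 in 5 and 5 in all 6. Regions in 2 or more lists made up 55.4% of the family's regions, near the 50.0% of the 17229 homeostasis regions of the study, and 7.21% of those 17229 were in all 6 lists. The 5 regions in all lists comprised a pair in Ntm (chr9:29434972-29435086 and chr9:29845050-29845188), one in Opcml (chr9:28784434-28784556) and a pair in Negr1 (chr3:157093157-157093321 and chr3:157132347-157132455). The gene table gives no exons, so none of these was assigned to an exon or intron. From the 5′ end of the gene the Ntm regions lay at 528 and 118 kb, that of Opcml at 994 kb and those of Negr1 at 531 and 571 kb. These 5 were also the complete set of IgLON peaks of H2AK119ub replicate 1. In 5 lists were 3 regions of Lsamp (chr16:40766115-40766223, chr16:41459536-41459654 and chr16:41966615-41966728) and 1 of Negr1 (chr3:156919184-156919302), and for each of them the list without it was H2AK119ub replicate 1. The lists were largely nested: of the IgLON peaks of a library, 13 of 18, 25 of 27 and 12 of 16 for BMI1 and 5 of 5 and 25 of 28 for H2AK119ub replicates 1 and 3 lay in a region of H2AK119ub replicate 2, the longest list. Over all peaks of these libraries the shares were 72.6%, 83.9% and 82.5% for BMI1, and 81.9% and 82.0% for H2AK119ub. Of the 25 regions found once, 13 came from H2AK119ub replicate 2.

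**Figure D3:**
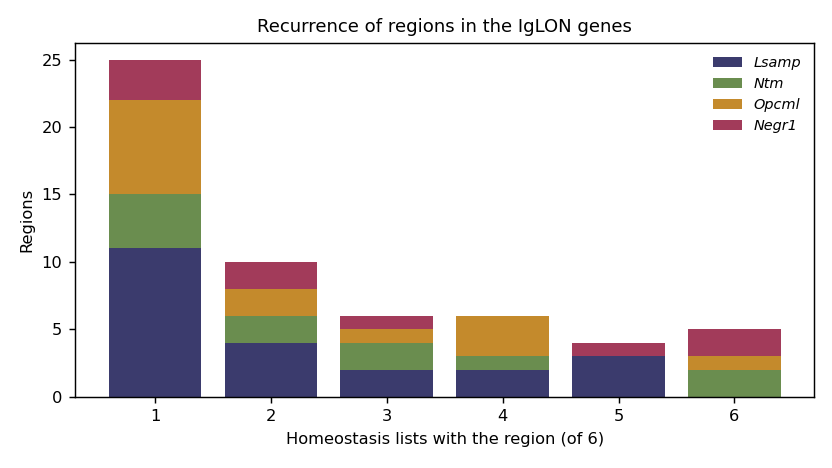
Number of IgLON regions (vertical axis) by how many of the 6 Homeostasis lists held them (horizontal axis), stacked by gene. The 25 regions of a single list are the highest bar, and the 5 regions in all 6 lists belong to Ntm, Opcml and Negr1.

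Sharing of recurrent regions between the antibodies was near that of the whole series and changed with the libraries required. BMI1 had 16 regions in 2 or more of 3 libraries and H2AK119ub had 25, and 15 of the 16 BMI1 regions (93.75%, exact 95% binomial interval 69.8% to 99.8%) overlapped one of H2AK119ub. In the other direction 15 of 25 (60.0%) did. Over the whole series the shares were 84.1% of 4466 BMI1 regions and 59.4% of 6327 H2AK119ub regions. The binomial interval is wide, covers counting error only and takes regions as independent. It therefore gives no test of a difference from the series. The exception was a region of Opcml (chr9:27954274-27954384) with 2 BMI1 lists and 1 H2AK119ub list. When a library was left out, both remaining libraries of its antibody had to hold a region. Without H2AK119ub replicate 2 or 3 the share of BMI1 regions was 31.25%, since H2AK119ub then kept 5 recurrent regions in place of 25. Without BMI1 replicate 2, BMI1 kept 9 recurrent regions in place of 16. For regions in all 3 libraries of each antibody the share of BMI1 regions was 55.6% (5 of 9). The shares of 31.25% and 55.6% were limited in advance by H2AK119ub replicate 1, which held only 5 IgLON regions. Counting any list, 26 of the 56 regions (46.4%) had both antibodies, 10 (17.9%) had BMI1 alone and 20 (35.7%) had H2AK119ub alone. Over the 17229 homeostasis regions of the series the shares were 43.1%, 13.2% and 43.7%.

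Peak width was almost fixed in the Homeostasis lists. Of the 137 peaks 132 were 101 bp wide, 96.4%, as were 95.9% of all homeostasis peaks on the assembled chromosomes. Regions merged from such peaks are narrow by construction, so the widths do not show how far BMI1 or H2AK119ub extended. The widest peak was 188 bp, in Lsamp, in H2AK119ub replicate 3 (chr16:41651650-41651837). In the 21 IgLON regions of 3 or more lists, the peak centres lay within 2 to 64 bp of each other, with a median of 13 bp, against a median of 14 bp in 5890 such regions of the study. Only overlapping peaks form a region, which limits this spread in advance. Peaks that lists placed slightly apart formed separate regions. The smallest gap between neighbouring regions was 0.067 kb in Lsamp, 0.076 kb in Ntm, 0.085 kb in Opcml and 0.051 kb in Negr1. With peaks within 1 kb merged, recurrent BMI1 regions numbered 20 in place of 16. The region of Negr1 at chr3:156919184-156919302 held peaks wider than 101 bp in 3 lists, at 105 bp in BMI1 replicate 3 and 114 and 111 bp in H2AK119ub replicates 2 and 3. No IgLON region lay on an annotated tRNA or 5S ribosomal RNA gene.

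**Figure D4:**
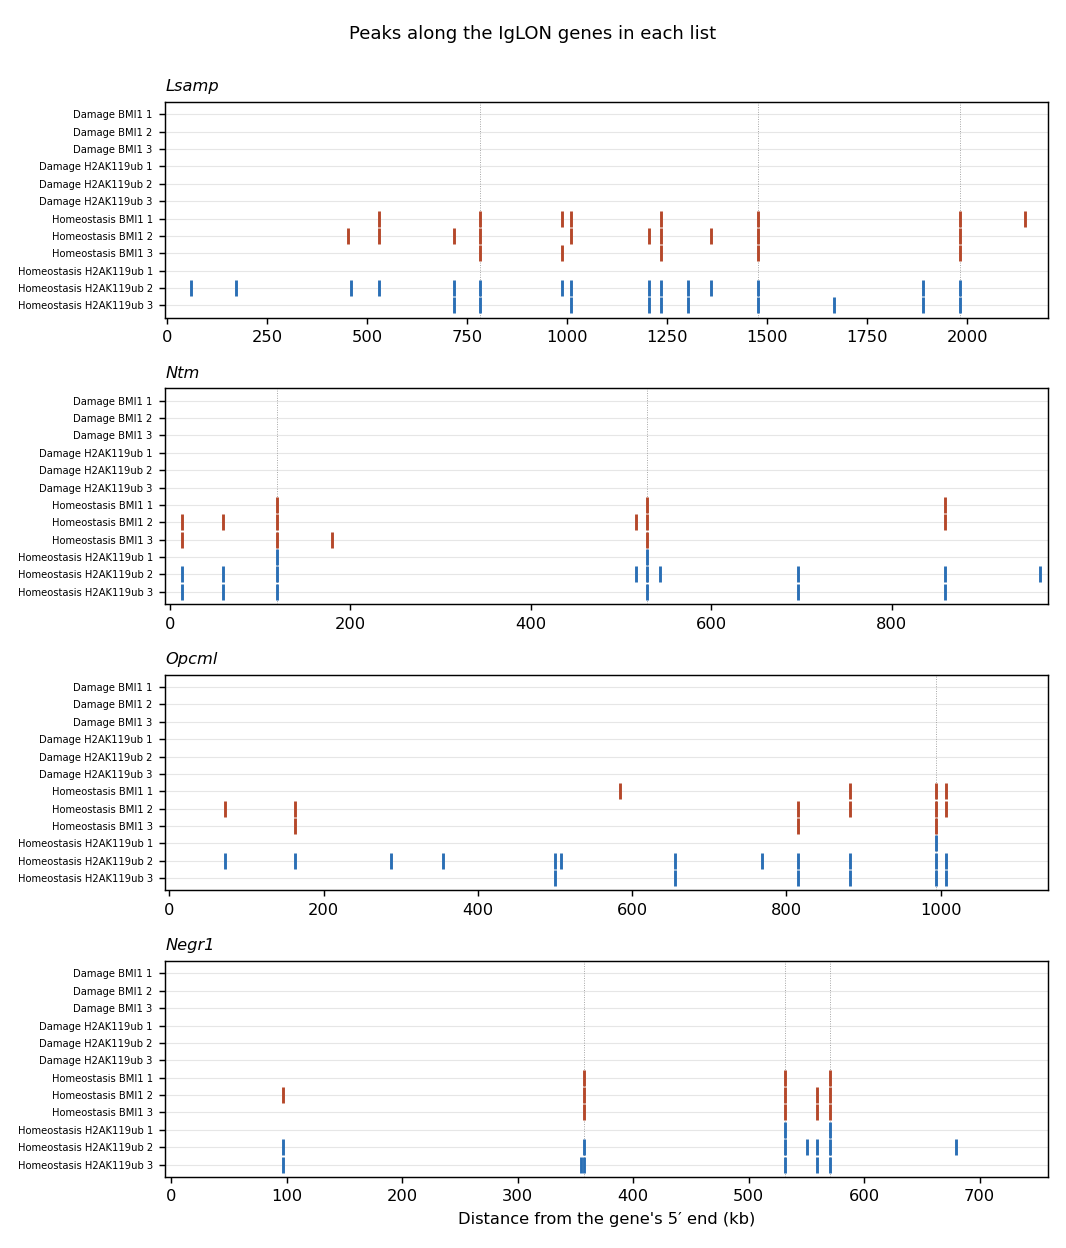
Regions held by each of the 12 lists along Lsamp, Ntm, Opcml and Negr1. Rows are lists, Damage above Homeostasis, with BMI1 in red and H2AK119ub in blue. Marks stand at the centre of the merged region, by distance from the 5′ end of the gene in kb. Dotted lines mark regions found in 5 or 6 Homeostasis lists. Damage rows are empty. Lists that share a region have marks at the same place by construction, so peak offsets between lists are not shown.

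Along the genes the regions were spread rather than gathered at a start. When each gene was divided from 5′ to 3′ into equal parts, 18 regions lay in the 5′ part, 19 in the middle and 19 in the 3′ part. In Negr1 6 of 9 were in the 3′ part, and in Lsamp 10 of 22 in the middle. The median distance between neighbouring regions was 68.7 kb in Lsamp, 60.1 kb in Ntm, 70.5 kb in Opcml and 15.1 kb in Negr1. The distance of a region to the nearest listed start of its own gene had a median of 455 kb. This median depends on which starts are listed, and the listed starts of Ntm lie well inside the gene. The Ntm regions chr9:29949459-29949572 and chr9:29949648-29949748 were 13.8 and 13.6 kb from its 5′ end, but 536 kb from a listed start. One region, chr16:41966615-41966728 in Lsamp, was within 5 kb of a listed start of another gene, 2.22 kb from that of Gm52229, a predicted protein-coding gene inside Lsamp (41964455 to 42070393). It held 5 peaks, 3 of BMI1 and 2 of H2AK119ub, which cannot be assigned to either gene by position. Over all peaks 9.47 to 11.1% of BMI1 peaks and 9.22 to 10.5% of H2AK119ub peaks per library were within 5 kb of a listed start. The members have 7 listed starts in 5.12 Mb of windows, so evenly spread peaks would seldom lie near one. The shares of all peaks are therefore no yardstick for the members. Other genes inside the members that carried peaks were the non-coding RNAs Gm52230 in Lsamp, with 1 BMI1 and 2 H2AK119ub peaks in a single region, and Gm39313 in Opcml, with 1 BMI1 peak.

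All 137 peaks were in the gene bodies, and none in the 5 kb flanks. One recurrent region fell just outside the windows. At 5.30 kb beyond the 3′ end of Ntm and in the gap towards Opcml, a region was present in all 6 Homeostasis lists and in no Damage list (chr9:28989270-28989451). The peak closest to an end of a member and still counted was 4.01 kb inside the same end of Ntm, in H2AK119ub replicate 2. For Iglon5 the nearest regions outside were 14.4 and 14.6 kb away (chr7:43504597-43504697, in 1 BMI1 list, and chr7:43504792-43504966, in 1 BMI1 and 2 H2AK119ub lists). Lsamp, Opcml and Negr1 had no further homeostasis peak within 20 kb.

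Other adhesion genes of the immunoglobulin superfamily were examined as a fixed list of contactins, L1 relatives, NCAM and DSCAM, SynCAMs, nectins and Kirrel genes, of which 25 were matched. BMI1 peaks in 2 or more of 3 libraries were found in 9 of the 25 and H2AK119ub peaks in 12, and 11 had no peak in any Homeostasis list. Of the 5 with windows of 500 kb or more, 4 met the rule for BMI1 and 5 for H2AK119ub. The median ratio to the expected number was 0.332 over the 25 genes and 0.972 over the 5 long ones, against 0.995 for all long genes. None of the 25 had a peak in a Damage list. Peaks in all 6 Homeostasis lists with the highest ratios were those of Chl1, Ncam1, Dscaml1 and Dscam. Chl1, a relative of L1 that acts in axon growth, had 2, 2 and 1 BMI1 peaks and 1, 4 and 3 H2AK119ub peaks, a ratio of 3.30 over the 6 lists. Ncam1, the neural cell adhesion molecule also made in heart and muscle, had 1, 3 and 1 BMI1 peaks and 1, 4 and 3 H2AK119ub peaks, a ratio of 2.65. Dscaml1 and Dscam, homophilic receptors of neurons, had ratios of 1.86 and 1.83. Ncam2, which is 424 kb long, and Cadm1, at 332 kb, had none, with 6.39 and 5.47 peaks expected over the 6 lists.

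Genes with the most similar pattern were sought among 230 other protein-coding genes with windows of 500 kb or more, by the root mean square difference of log2((observed + 0.5)/(expected + 0.5)) over the 6 Homeostasis lists. For Lsamp these were Il1rapl1, a synaptic receptor (difference 0.32), with 5, 3 and 1 BMI1 peaks and 0, 7 and 3 H2AK119ub peaks, and Tenm2, a teneurin adhesion protein (0.34). Like Lsamp, both had no peak in H2AK119ub replicate 1, which is part of the pattern by which they were chosen. For Ntm they were Rora, a nuclear receptor (0.18), with 3, 5 and 3 BMI1 peaks and 2, 8 and 5 H2AK119ub peaks, and Dcc, a netrin receptor (0.27). Opcml was most like Lrrc4c, a netrin-G ligand (0.21), with 5, 6 and 4 BMI1 peaks and 1, 9 and 6 H2AK119ub peaks, and Ctnna3, an alpha-catenin of heart muscle (0.25). Negr1 was most like Sgcz, a sarcoglycan (0.19), with 5, 8 and 6 BMI1 peaks and 4, 9 and 8 H2AK119ub peaks, and Robo1, a Slit receptor (0.19). All genes were counted in the same 6 lists, so the likeness describes those lists and was not tested.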

How the data were processed

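The authors deposited 12 peak lists, one per ChIP library, with peak positions in bp. Bowtie2, HOMER 4.8 and GRCm38 are named, per the submitters' processing notes. How peaks were called, and whether with the Input, is not given in the sources used here. Every peak has a deposited score of 1, which ranks nothing, and depth per library is unknown. Binomial intervals and limits for counts of 0 (3 counts of the total, 95% intervals) cover counting error only.

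Groups came from the sample titles. Gene spans were those of RefSeq on GRCm38.p6, and strands, starts and sequence from its promoter windows. All 5 members matched. Peaks on sequences outside the 21 chromosomes (143) were left out of gene counts. A peak counted with 1 bp or more in the gene or 5 kb around it. Regions were overlapping peaks merged over lists, and recurrent regions were built per antibody. The counting of peaks per gene and the expected numbers were tested on peaks placed at random. Merging into regions, recurrence, sharing between antibodies and likeness of genes were not part of that test. Members and lists were chosen with earlier results of these data known. No test was run, because the members were chosen for these peak numbers. The rule for named items was all members, regions in 5 or 6 lists, up to 4 adhesion genes in all 6 lists, and 2 genes most like each member. Some other items, among them genes without peaks and regions beside the windows, were named after their values were seen. Computation used Python 3.11.15, numpy 2.4.6, pandas 2.3.3, scipy 1.17.1 and matplotlib 3.10.9.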

Additional observations from a re-analysis of the deposited data

How the results depend on the processing

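Leaving aside the Damage counts, 35 of 50 alternative values of the main results moved by less than the spread between libraries, the binomial interval or 1.5 times. Some of these 35 could not have moved. No peak lay in the 5 kb flanks and no region on a tRNA or 5S gene. Recurrent regions thus stayed at 16 for BMI1 and 25 for H2AK119ub with the gene body alone and with tRNA and 5S regions left out. The BMI1 family ratio of 1.85 was 1.97 with 20 kb flanks, 1.96 with the expected number taken from all chromosomes and 2.18 with it taken from protein-coding gene windows, where the H2AK119ub ratio was 1.85 in place of 1.62. The 20 kb flanks added 6 peaks of the region 5.30 kb from Ntm and 4 peaks near Iglon5, which then no longer stood at 0. Leaving out single libraries gave 1.80 to 1.90 for BMI1 and 1.52 to 1.72 for H2AK119ub. Regions required in all 3 libraries numbered 9 for BMI1 and 5 for H2AK119ub, and the overlap was then 55.6% (5 of 9). With an H2AK119ub peak in any list it was 100%. Without single libraries, both remaining libraries of the antibody had to hold a region. Recurrent regions then numbered 9 to 13 for BMI1 and 5 to 25 for H2AK119ub, and the overlap was 31.25 to 100%. The low values came without H2AK119ub replicate 2 or 3, where the 5 IgLON regions of replicate 1 set the limit. The H2AK119ub ratio of Lsamp fell below 1 with 20 kb flanks (0.994), with the expected number from all chromosomes (1.00 after rounding, 0.9997) and without replicate 2 or 3 (0.691 to 0.820). As summed observed over summed expected it was 1.37. Of 96 values for single members, 89 moved by less than the spread, 3 by more and 4 crossed 1. Damage peaks numbered 0 in every setting, which most of the settings, such as leaving out a library, could not have changed.

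No paired analysis was possible because the results come from no test and no label ties same-numbered libraries to one mouse or day. At homeostasis the library codes in the titles differ in number between same-numbered BMI1 and H2AK119ub replicates. In the Damage groups the codes match in number, but the labels do not say that this marks a shared mouse or day. Sequencing depth is unknown, so its part in the length of each list was not tested. H2AK119ub replicate 1, with 2000 peaks, and the Damage lists limit what can be seen.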
